A study of Mus musculus with 11 samples.

Results

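Axonal injury and regeneration genes were followed as 10 genes fixed by name, Atf3, Jun, Sox11, Gap43, Sprr1a, Gal, Npy, Adcyap1, Ecel1 and Csf1, out of 22609 genes in the count table. All 10 passed the low-count filter and were among the 17557 genes tested. The data came from bulk RNA-seq of polyadenylated RNA in 11 mouse libraries labelled as cerebellar hemisphere, with 3 control, 3 NFKO, 2 AnkGKO and 3 DKO libraries from untreated littermates of mixed sex on a mixed C57BL/6J;129 background. NFKO mice carried Pcp2-Cre with floxed Nfasc alleles, AnkGKO mice carried Pcp2-Cre with floxed alleles of Ank3, the gene for AnkG, and DKO mice carried both floxed genes with Pcp2-Cre. The study's methods describe the controls as floxed mice without Cre, although elsewhere its text gives Pcp2-Cre to the controls as well, and they count 3 AnkGKO mice where 2 libraries were labelled. Ages were given as postnatal day 30 in the sample descriptions and day 32 in the growth protocol. Pcp2-Cre acts mainly in Purkinje cells, so the design was meant to leave the floxed genes intact in most cells of the tissue. Whether it did so in these libraries was not tested, and the levels of Ank3 and Pcp2 are given below.

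After an axon is cut or stressed, the neuron sends signals back to its nucleus through the DLK and JNK kinases. Transcription factors such as Atf3, Jun and Sox11 then turn on a set of genes for growth cone proteins, neuropeptides and secreted factors that is best known from sensory and motor neurons with injured peripheral axons. In the cerebellum, the study asked what happens to Purkinje cells when the axon initial segment is built without neurofascin, AnkG or both. The comparisons below ask whether the injury genes differed between the genotypes.

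Of the 10 genes, Atf3, Sprr1a, Ecel1 and Csf1 were higher in every AnkGKO and DKO library than in every control and NFKO library. No gene of the 10 separated the libraries this way in the opposite direction. Across all genes tested, 0.53% were higher in this pattern and 0.473% were lower. The other 6 genes overlapped between these libraries. Against control alone, 5 of the 10 were higher without overlap in AnkGKO, the same 4 and Jun, beside 11.7% of all genes, 4 in DKO beside 7.65% and 1, Atf3, in NFKO beside 7.42%. The letters upstream of the 4 genes are shown here because their levels moved together, as a reference for where transcription starts. Each line runs 5' to 3' on the gene's strand, from 250 bases before to 50 bases after the RefSeq start on GRCm38.p6, and capitals mark TGANTCA, the AP-1 motif bound by Jun and its partners.
Sprr1a: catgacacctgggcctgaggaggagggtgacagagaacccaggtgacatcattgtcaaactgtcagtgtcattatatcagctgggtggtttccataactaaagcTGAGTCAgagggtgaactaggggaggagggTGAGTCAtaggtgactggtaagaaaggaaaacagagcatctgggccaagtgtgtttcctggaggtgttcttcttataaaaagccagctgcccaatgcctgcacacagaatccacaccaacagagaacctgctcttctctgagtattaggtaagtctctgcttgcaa
Atf3: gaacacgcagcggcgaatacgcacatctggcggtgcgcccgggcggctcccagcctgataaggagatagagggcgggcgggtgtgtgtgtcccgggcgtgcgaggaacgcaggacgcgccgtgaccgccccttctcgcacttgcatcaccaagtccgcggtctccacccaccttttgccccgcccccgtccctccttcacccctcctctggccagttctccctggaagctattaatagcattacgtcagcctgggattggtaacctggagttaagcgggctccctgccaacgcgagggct
Ecel1: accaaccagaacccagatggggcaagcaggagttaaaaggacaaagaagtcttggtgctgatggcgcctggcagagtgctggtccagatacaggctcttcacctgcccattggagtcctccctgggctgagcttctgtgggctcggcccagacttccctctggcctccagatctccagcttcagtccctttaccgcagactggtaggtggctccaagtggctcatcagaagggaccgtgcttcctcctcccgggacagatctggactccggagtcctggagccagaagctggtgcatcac
Csf1: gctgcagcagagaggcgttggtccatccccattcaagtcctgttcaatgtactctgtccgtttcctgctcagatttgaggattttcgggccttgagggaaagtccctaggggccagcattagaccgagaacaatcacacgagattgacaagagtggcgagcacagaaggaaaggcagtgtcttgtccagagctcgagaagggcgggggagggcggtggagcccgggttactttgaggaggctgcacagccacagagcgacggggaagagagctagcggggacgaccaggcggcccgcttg
On GRCm38.p6 these windows lay on the minus strand at chr3:92485832-92486131 for Sprr1a, chr1:191183284-191183583 for Atf3, chr1:87156307-87156606 for Ecel1 and chr3:107760420-107760719 for Csf1. The motif TGANTCA was found on either strand in 1 gene of the 9 with a promoter sequence, Sprr1a, which held it 2 times, at 146 and 116 bases before its start, both as TGAGTCA. It was found in 7.81% of 32851 mouse promoters of the same length, and in at least 1 promoter of 8.97% of 27025 genes. The CRE motif TGACGTCA, bound by Atf and CREB proteins, was found in none of the 9 genes and in 1.79% of all promoters or 2.03% of all genes, and shares no position with the AP-1 matches. These matches describe the letters in the window and do not show binding.

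Reads counted on genes ranged from 38890851 to 55822361 per library, so that 3 counts, the floor used here, equalled 0.0546 to 0.0780 CPM, which covers counting error only. Levels are given in CPM, counts scaled to a common library size with TMM factors. Ank3 fell in AnkGKO by 1.03 on the log2 scale (adjusted p = 0.00108) and in DKO by 1.07 (adjusted p = 0.000461, both from edgeR quasi-likelihood fits with Benjamini-Hochberg correction), while Nfasc was at 653 ± 41.8 CPM in NFKO (SD, n = 3) against 690 ± 28.4 in control (SD, n = 3) and did not pass the test (adjusted p = 0.969). The tissue label was checked against defining markers. Pcp2, a Purkinje cell gene, was at 26.3 CPM in control 1 and 28.3 CPM in NFKO 1 but at 0.09 to 2.14 CPM in the other 9 libraries. The granule cell gene Gabra6 was at 84.2 and 59.0 CPM in the same pair of libraries and at 0.02 to 4.41 CPM in the others. A set of 12 caudal Hox genes, which mark trunk levels of the spinal cord, summed to 395 to 615 CPM in all 11 libraries. Over the whole lists, 7 Purkinje markers summed to 1133 and 1239 CPM in that pair and 294 to 414 in the other 9 libraries, and 8 granule cell markers to 674 and 574 against 82.7 to 150 CPM. Pcp2 and Gabra6 were thus near absent in 9 libraries, where less restricted genes of the lists such as Itpr1 and Pvalb stayed at 89.7 CPM or more and control 2, NFKO 2 and DKO 1 held the granule cell gene Cbln3 at 12.2, 15.2 and 14.7 CPM. The called results are given below with and without control 1 and NFKO 1. DKO 2 also stood apart, with the sensory neuron channel gene Scn10a at 54.0 CPM against 0.42 CPM or less elsewhere. Controls 2 and 3 were among the 9 libraries, with Pcp2 at 1.43 and 0.17 CPM and Gabra6 at 4.41 and 0.095 CPM. Whether these libraries hold the labelled tissue was not tested. In bulk RNA, fewer cells of a type and less RNA per cell cannot be told apart.

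**Figure D1:**
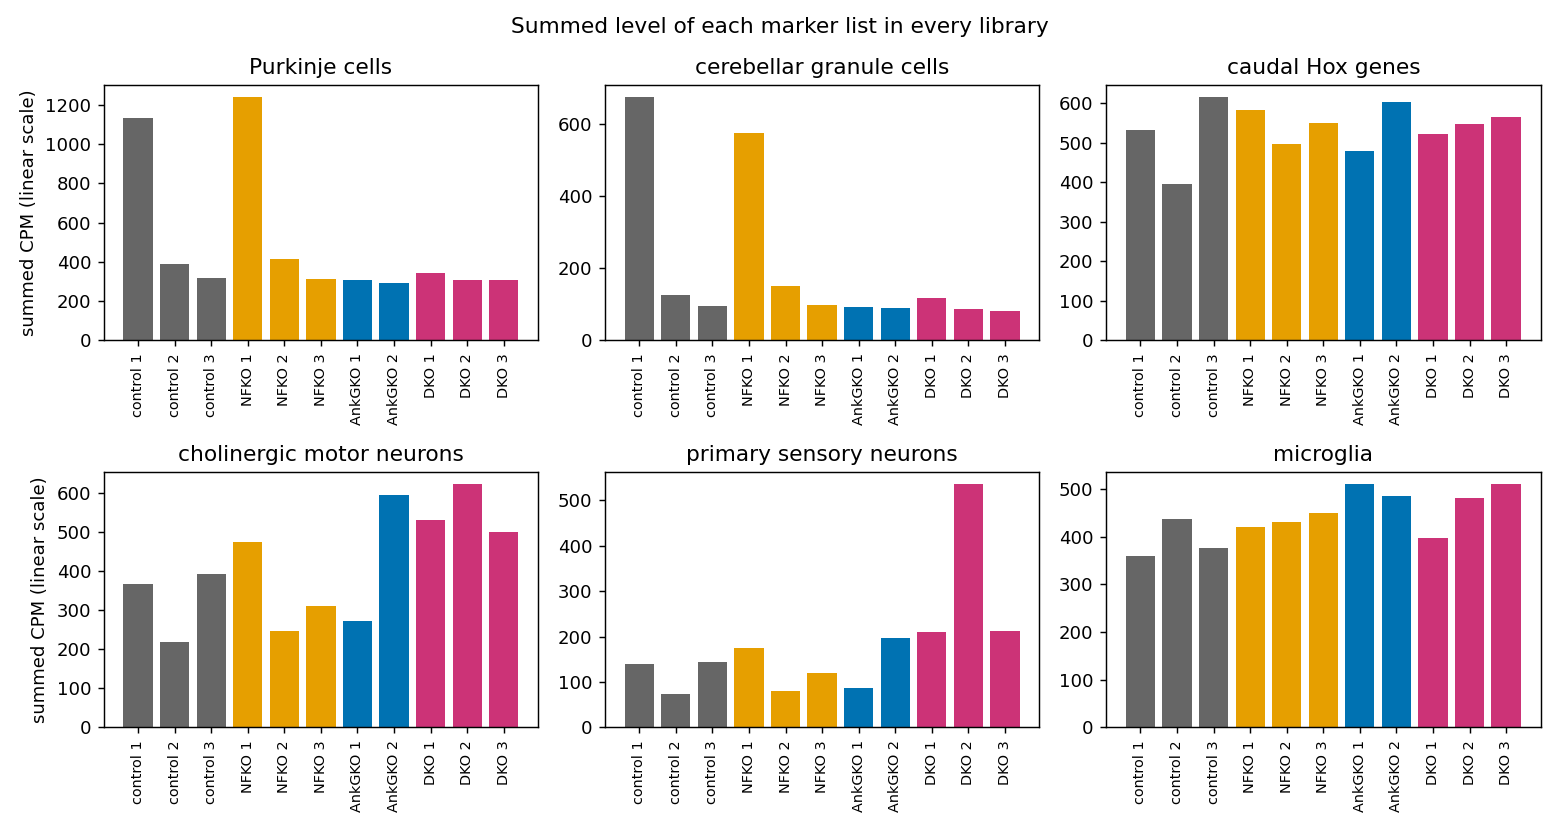
Summed CPM (linear scale) of 6 marker lists in each of the 11 libraries, with bars colored by genotype. Purkinje and granule cell markers were high in control 1 and NFKO 1, primary sensory neuron markers were highest in DKO 2 at 537 CPM, and caudal Hox genes summed to at least 395 CPM in all libraries.

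Per length, the 10 genes covered a wide range of expression. Gap43, a growth cone membrane protein that neurons also keep making in the adult, had a median of 64.4 CPM per kb of exon over the 11 libraries. Jun followed at 22.8 CPM per kb, Ecel1 at 12.8, Csf1 at 12.7, Npy at 5.48, Adcyap1 at 4.57, Gal at 4.02, Atf3 at 0.860, Sox11 at 0.859 and Sprr1a at 0.361. Gap43 lay above Jun in all libraries, with 56.6 to 70.9 CPM per kb against 16.3 to 24.9. The ranges of Jun and Ecel1 overlapped, as did those of Ecel1 and Csf1. Csf1 at 11.1 to 14.6 CPM per kb lay above Npy at 3.85 to 7.35. Npy, Adcyap1 and Gal overlapped, and Gal at 2.30 to 7.05 CPM per kb lay above Atf3 at 0.503 to 1.96. Atf3, Sox11 and Sprr1a overlapped. Sprr1a had the widest range of the 10 genes, from 0.0244 to 4.37 CPM per kb, and Gap43 had the narrowest relative to its level, with 134.4 CPM in the highest library and 107.3 CPM in the lowest.

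**Figure D2:**
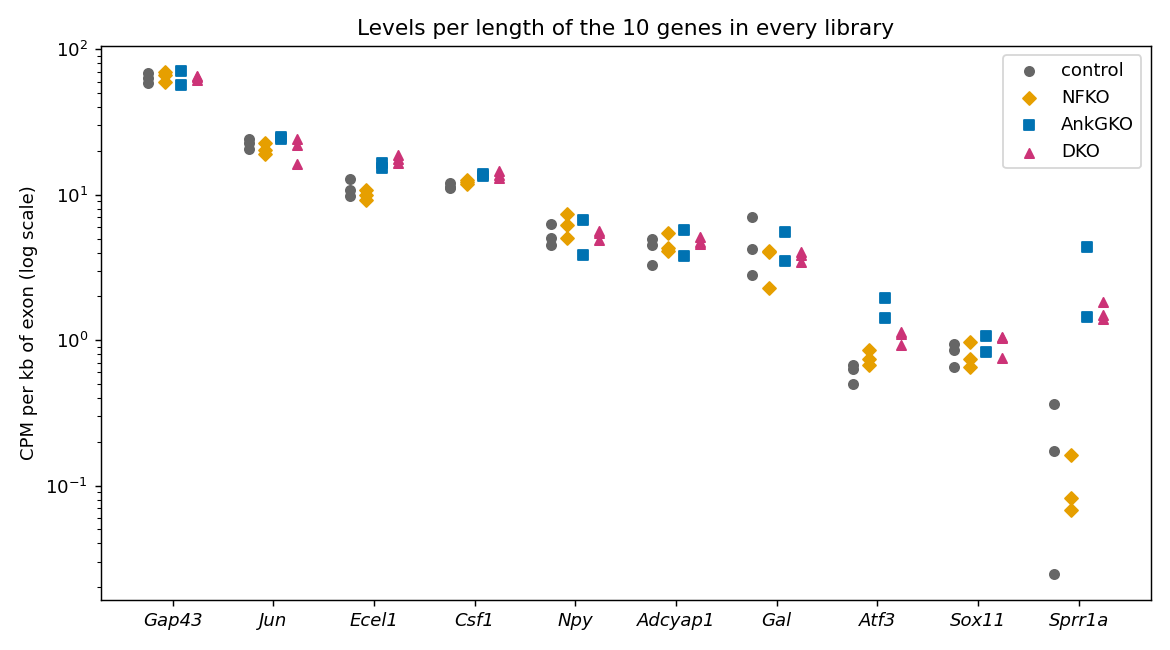
Level of each of the 10 genes in every library, in CPM per kb of exon on a log scale, with genes ordered by their median and libraries marked by genotype. Gap43 was the highest gene in all libraries, and Sprr1a spread from 0.0244 to 4.37 CPM per kb.

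Sprr1a encodes a small proline-rich protein first known from skin, which appears in injured neurons and promotes neurite growth, and it lies on chromosome 3 from 92390424 to 92393208 on the minus strand of GRCm39. Its level was 0.286, 0.0403 and 0.595 CPM in the control libraries and 0.268, 0.135 and 0.111 CPM in NFKO, from 2 to 25 counts per library. It was 7.20 and 2.39 CPM in AnkGKO and 2.29, 3.01 and 2.46 CPM in DKO, from 98 to 349 counts. Every library with the Ank3 deletion lay above every library without it, and control 2 lay below the floor. Control averaged 0.307 ± 0.278 CPM (SD, n = 3) and NFKO 0.171 ± 0.0843 (SD, n = 3), whereas AnkGKO averaged 4.80 ± 3.40 (SD, n = 2) and DKO 2.59 ± 0.380 (SD, n = 3). Between DKO and NFKO, which share no library with AnkGKO and control, Sprr1a rose by 3.90 on the log2 scale (standard error 0.71, adjusted p = 0.0418, edgeR with Benjamini-Hochberg adjustment). The change of 3.99 between AnkGKO and control (standard error 0.72) did not pass (adjusted p = 0.0958), nor did that of 3.09 between DKO and control (standard error 0.68, adjusted p = 0.455). Without control 1 and NFKO 1 the change between DKO and NFKO was 4.36 and no longer passed (adjusted p = 0.172). The call also went when any 1 of the 6 libraries compared was left out. The change was then 4.36 without NFKO 1, 3.75 without NFKO 2, 3.66 without NFKO 3, 3.98 without DKO 1, 3.78 without DKO 2 and 3.93 without DKO 3, with adjusted p between 0.0530 and 0.175 in edgeR, and without control 1, which enters through the shared spread only, it was 3.90 (adjusted p = 0.0751).

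Ecel1, which encodes a membrane endopeptidase that injured neurons turn on, lies on chromosome 1 from 87075377 to 87084243 on the minus strand. It was at 45.1, 49.2 and 58.7 CPM in control, at 49.1, 41.8 and 45.3 CPM in NFKO, at 70.0 and 75.9 CPM in AnkGKO and at 80.8, 85.3 and 75.9 CPM in DKO. The lowest library with the Ank3 deletion lay above the highest without it, control 3. Ecel1 rose between DKO and NFKO by 0.83 on the log2 scale (standard error 0.10, adjusted p = 0.00149, edgeR with Benjamini-Hochberg adjustment). It differed by 0.66 between DKO and control (standard error 0.10, adjusted p = 0.0561) and by 0.52 between AnkGKO and control (standard error 0.11, adjusted p = 0.114), neither of which passed. Without control 1 and NFKO 1, the change between DKO and NFKO was 0.89 (adjusted p = 0.00382), and without DKO 2 it was 0.79 (adjusted p = 0.00602). Without control 3, Ecel1 passed in DKO against control (0.77, adjusted p = 0.0167, edgeR) and in AnkGKO against control (0.63, adjusted p = 0.0404). Exons of Ecel1 overlap the antisense RNAs Gm51638 and Gm70552. The libraries were strand-specific, but the strand used in counting was not given in the sources used here.

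Atf3, a stress-induced transcription factor that is nearly silent in uninjured neurons, lies on chromosome 1 from 190902493 to 190950241 on the minus strand. Its level was 1.53, 1.23 and 1.64 CPM in control, 1.80, 2.10 and 1.65 in NFKO, 3.49 and 4.78 in AnkGKO and 2.71, 2.78 and 2.26 in DKO, from 59 to 220 counts per library. The genotypes did not overlap, with AnkGKO highest, then DKO, NFKO and control, although the lowest NFKO library was only just above the highest control. Atf3 rose by 1.49 on the log2 scale between AnkGKO and control (standard error 0.21, adjusted p = 0.0116, edgeR with Benjamini-Hochberg adjustment), where the ratio of the group means was 2.82. The change of 0.81 between DKO and control (standard error 0.20, adjusted p = 0.467) and that of 0.48 between DKO and NFKO (standard error 0.19, adjusted p = 0.249) did not pass. Atf3 differed by -0.68 between DKO and AnkGKO (standard error 0.21, unadjusted p = 0.00695, adjusted p = 0.436), and the interaction of the knockouts was -1.02 (standard error 0.29, adjusted p = 0.209), so its lower level in DKO did not pass the test in edgeR. Without control 1 and NFKO 1 the change between AnkGKO and control was 1.53 and did not pass (adjusted p = 0.0964, edgeR). This change did not pass with a replicate block, with Xist as a covariate or with only the libraries compared either. It also did not pass when AnkGKO 2 was left out, at 1.25 (adjusted p = 0.163), when control 1 was left out, at 1.53 (adjusted p = 0.0560), or when control 2 was left out, at 1.38 (adjusted p = 0.0636).

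Csf1 encodes the growth factor that microglia need through the receptor Csf1r, and injured sensory and motor neurons release it. It lies on chromosome 3 from 107648364 to 107667806 on the minus strand. Csf1 was at 65.3, 65.9 and 70.4 CPM in control, 71.8, 74.3 and 69.7 in NFKO, 78.8 and 82.0 in AnkGKO and 80.9, 85.8 and 76.3 in DKO. The libraries with the Ank3 deletion did not overlap those without it, but the highest NFKO library and the lowest DKO library lay close together. The change was 0.26 between AnkGKO and control (standard error 0.07, adjusted p = 0.341), 0.27 between DKO and control (standard error 0.06, adjusted p = 0.427) and 0.17 between DKO and NFKO (standard error 0.06, adjusted p = 0.212), none of which passed in edgeR. Exons of Csf1 overlap the antisense RNA Gm40121.

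**Figure D3:**
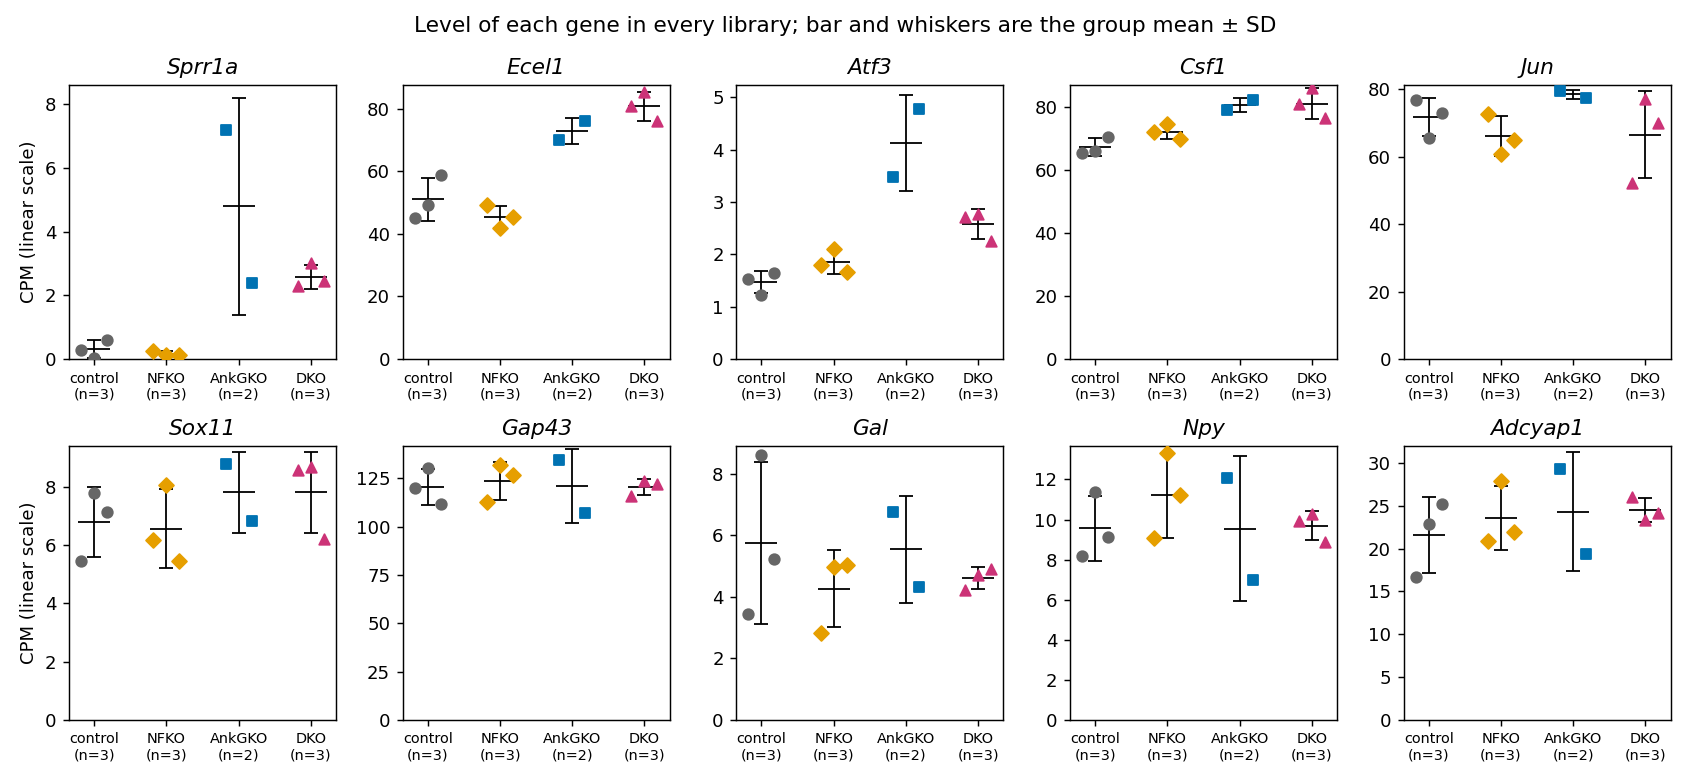
CPM (linear scale from 0) of the 10 genes in each library, grouped by genotype, with group mean ± SD as bar and whiskers (n = 3, and n = 2 for AnkGKO). The points of Sprr1a, Ecel1, Atf3 and Csf1 for AnkGKO and DKO lie above all points for control and NFKO, and the other 6 genes overlap.

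Jun, the AP-1 subunit that neurons activate through JNK, was at 76.8, 65.6 and 72.9 CPM in control, 72.6, 60.8 and 65.0 in NFKO, 79.5 and 77.5 in AnkGKO and 52.1, 77.2 and 70.0 in DKO. The AnkGKO libraries lay above the controls, but DKO 1 was the lowest of all 11 libraries, and the change of 0.13 between AnkGKO and control did not pass (standard error 0.14, adjusted p = 0.998, edgeR). Jun shares exon positions with the antisense RNA Junos. Sox11, a developmental transcription factor that returns in injured sensory neurons, ranged from 5.46 to 8.81 CPM and overlapped in every comparison, with changes of 0.20 in AnkGKO and 0.20 in DKO against control (standard error 0.22 and 0.19).

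Gap43 was at 119.8, 130.3 and 111.7 CPM in control, 112.8, 131.8 and 126.9 in NFKO, 134.4 and 107.3 in AnkGKO and 116.0, 123.9 and 122.2 in DKO. Its libraries overlapped in all genotypes. The 95% interval of its change was -0.22 to 0.23 on the log2 scale between AnkGKO and control and -0.20 to 0.20 between DKO and control, so both intervals lay inside the threshold of 0.6.

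The 3 neuropeptide genes also overlapped. Gal, which encodes galanin and is among the most induced peptides in cut sensory and motor axons, was at 3.43, 8.62 and 5.21 CPM in control, 2.81, 4.97 and 5.02 in NFKO, 6.77 and 4.30 in AnkGKO and 4.22, 4.72 and 4.91 in DKO. Control 2 was the highest of all libraries for Gal. Npy, the gene for neuropeptide Y, ranged from 6.97 CPM in AnkGKO 2 to 13.3 CPM in NFKO 2. Adcyap1, the gene for the peptide PACAP, ranged from 16.7 CPM in control 1 to 29.3 CPM in AnkGKO 1, and its exons overlap the antisense RNA Gm32465. The change against control was -0.059 in AnkGKO and -0.32 in DKO for Gal (standard error 0.37 and 0.33), -0.0040 and 0.020 for Npy (0.23 and 0.20) and 0.17 and 0.18 for Adcyap1 (0.20 and 0.18), and none passed in edgeR.

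By comparison, edgeR with Benjamini-Hochberg adjustment called 1 of the 10 genes, Atf3, between AnkGKO and control, where 0.165% of all genes were called and 0.12% were called higher. It called Sprr1a and Ecel1 between DKO and NFKO, 2 of 10 beside 0.615% of all genes called and 0.296% called higher, all 3 being higher in the genotype with the Ank3 deletion. Between DKO and control it called 0 of 10 beside 0.0228% of all genes, although 4 had an unadjusted p under 0.05 (7.77% of all genes did) and DESeq2 called 3, Atf3, Sprr1a and Ecel1. NFKO against control gave 0 of 10 beside 0.365% of all genes, with 0 at an unadjusted p under 0.05 (7.69% of all genes) and 0 by DESeq2. DKO against AnkGKO gave 0 beside 0.171%, with 1 at an unadjusted p under 0.05 (8.48% of all genes) and 0 by DESeq2. The interaction gave 0 beside 0.53%, with 1 at an unadjusted p under 0.05 (10.3% of all genes) and 1, Atf3, by DESeq2. The test for any difference among the 4 genotypes called Atf3 (adjusted p = 0.0159), Sprr1a (adjusted p = 0.0266) and Ecel1 (adjusted p = 0.00254), 3 of 10 beside 0.723% of all genes. DESeq2 called these 3 and Csf1. The percentages here are for edgeR, and DESeq2 called more of all genes in every comparison, with the numbers given below. In edgeR Atf3 lost its call without AnkGKO 2 and Sprr1a lost its call without control 1, any 1 NFKO library, DKO 1 or DKO 3, and both lost theirs without control 1 and NFKO 1. The median log2 fold change of the 10 genes was 0.19 in AnkGKO, 0.19 in DKO and -0.01 in NFKO against control, against 0.00 to -0.01 for all genes.

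A test of the average effect of the Ank3 deletion, with AnkGKO and DKO against control and NFKO, was added after the counts had been seen. In it Sprr1a was higher by 3.94 (standard error 0.51, adjusted p = 0.0136), Atf3 by 0.99 (standard error 0.14, adjusted p = 0.0136) and Ecel1 by 0.67 (standard error 0.07, adjusted p = 0.00203), beside 0.131% of all genes called and 0.0911% called higher. Csf1 was higher by 0.21 (standard error 0.05, adjusted p = 0.125, edgeR) and did not pass. Ecel1 kept its call under all 18 alternatives run for this test. Without control 1 and NFKO 1, Sprr1a was at 4.16 (adjusted p = 0.166) and Atf3 at 0.99 (adjusted p = 0.117), and neither passed in edgeR. With a replicate block in the fit, Atf3 lost its call and Sprr1a kept it. Sprr1a also lost its call without control 1 (3.93, adjusted p = 0.0626) and without NFKO 2 (3.87, adjusted p = 0.0529), and Atf3 without AnkGKO 2 (0.86, adjusted p = 0.108). Averaged over both Ank3 genotypes, the Nfasc deletion gave 0 calls among the 10 genes beside 0.103% of all genes, with 0 at an unadjusted p under 0.05 in edgeR beside 5.66% of all genes (this average was not run in DESeq2).

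**Figure D4:**
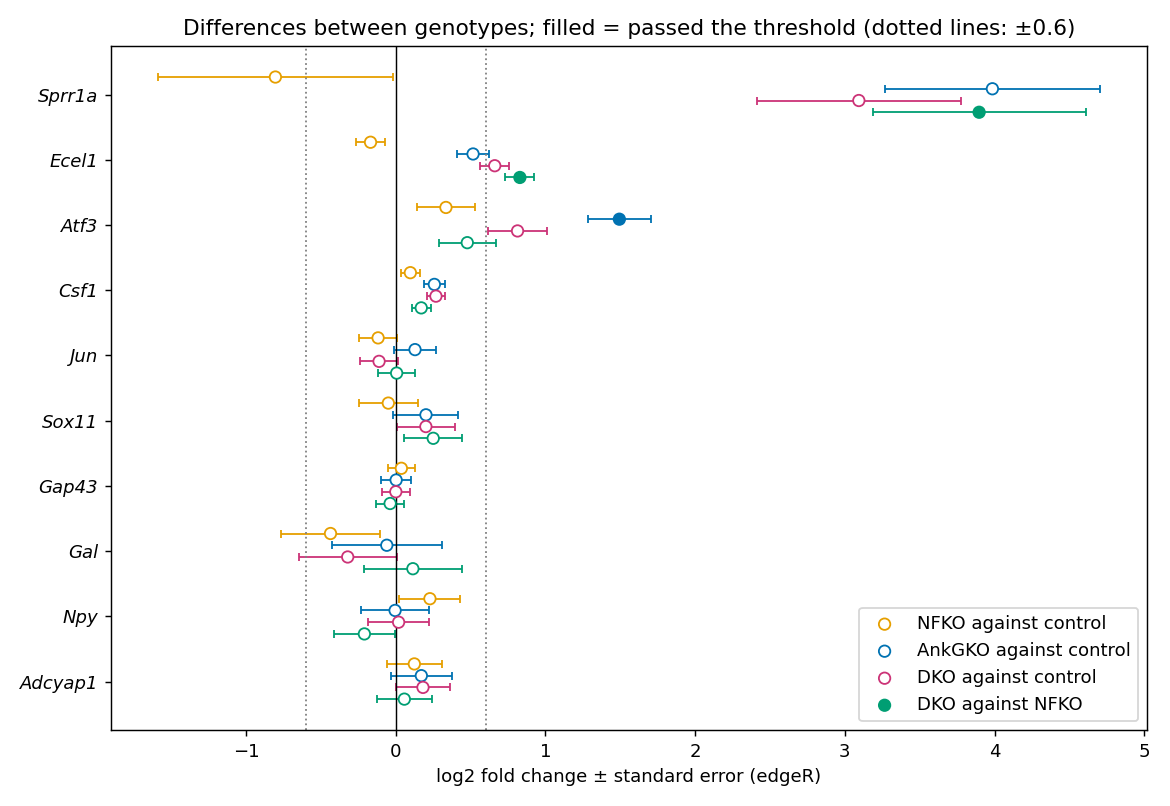
Log2 fold change of each of the 10 genes with its standard error from edgeR in 4 comparisons, where filled symbols passed the threshold and dotted lines mark 0.6 in each direction. Atf3 in AnkGKO against control, and Sprr1a and Ecel1 in DKO against NFKO, are the filled points.

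**Figure D5:**
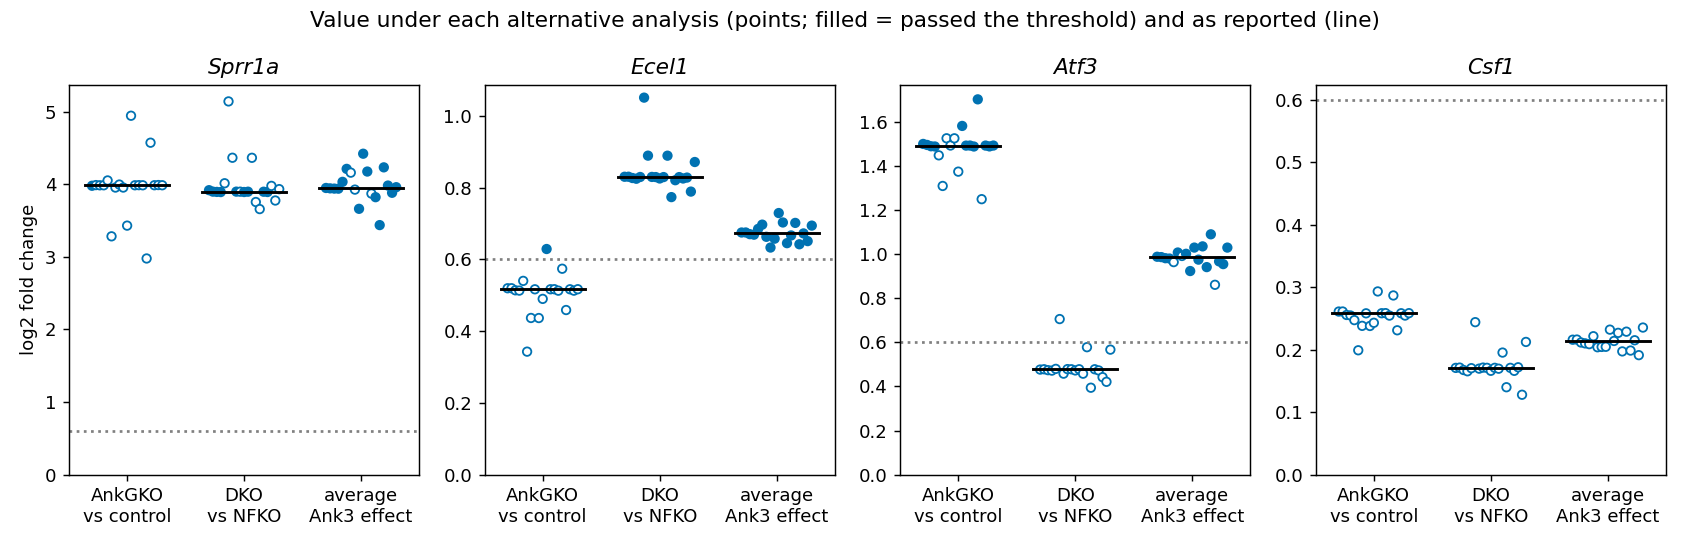
Log2 fold change of Sprr1a, Ecel1, Atf3 and Csf1 under each alternative (points, filled where the change passed the threshold) with the reported value as a line, for AnkGKO against control, DKO against NFKO and the average effect of the Ank3 deletion. Ecel1 passed under every alternative in DKO against NFKO and in the average effect, while Csf1 stayed below 0.6 in all.

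Summed markers of astrocytes and of motor and sensory neurons moved with some of these results. The 5 astrocyte markers summed to 5178 to 5473 CPM in control, 4770 to 5678 in NFKO, 7206 and 7487 in AnkGKO and 5961 to 6299 in DKO. This sum was higher in every library with the Ank3 deletion than in every library without it, but each of the 5 markers overlapped. Slc1a2 was at 2301 CPM in DKO 2 against 2830 in NFKO 1. Slc1a3 was at 149 to 201 CPM with the deletion and 160 to 320 without it. None of the 5 was at or below 3 counts in any library. Gfap, an intermediate filament gene of astrocytes, overlapped between these libraries and was higher by 0.71 between DKO and NFKO (standard error 0.16, adjusted p = 0.0776) and by 0.64 in the average effect of the Ank3 deletion (standard error 0.12, adjusted p = 0.0779), neither of which passed in edgeR, while DESeq2 called it in both. The 7 markers of cholinergic motor neurons, counted with Prph that the sensory list also holds, summed to 219 to 392 CPM in control, 246 to 474 in NFKO, 272 and 596 in AnkGKO and 501 to 624 in DKO. Of the 7, Uts2 rose between DKO and control by 2.60 (standard error 0.27, adjusted p = 0.00818, edgeR), and none of the 7 was at or below 3 counts in any library. AnkGKO 1 had a motor marker sum of 272 CPM, inside the control range, and a sensory marker sum of 86.8 CPM, inside the control range of 72.5 to 144. AnkGKO 2 and the DKO libraries lay above every control in both sums. The 9 sensory neuron markers summed to 80.4 to 175 CPM in NFKO, 86.8 and 198 in AnkGKO and 209 to 537 in DKO, where DKO 2 held the highest sum and 0 of 9 were at or below 3 counts. In DKO 1 and DKO 3 Scn10a was at 0.047 and 0.11 CPM, but the sums of 209 and 212 CPM lay above every control, with the peptide gene Calca at 90.1 and 102 CPM against 18.4 to 38.6 in control. Outside DKO 2, between 1 and 3 of the 9 sensory markers were at or below 3 counts in each library. The part of these cells in the levels of the 10 genes was not tested.

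Genes that belong to the same pathways were followed by lists. Of 34 other regeneration-associated genes, 0 passed in any of the 6 comparisons in edgeR, with 2, 3 and 8 at an unadjusted p under 0.05 in NFKO, AnkGKO and DKO against control, 8 in DKO against NFKO, 3 in DKO against AnkGKO and 1 in the interaction. Of all genes, 7.69%, 5.39% and 7.77% had an unadjusted p under 0.05 in NFKO, AnkGKO and DKO against control, 16.2% in DKO against NFKO, 8.48% in DKO against AnkGKO and 10.3% in the interaction. DESeq2 called Vip in DKO against control and Cd44 in DKO against NFKO. The median change of the 34 genes against control was 0.06 in NFKO, 0.17 in AnkGKO and 0.17 in DKO. Stat3, a transcription factor of cytokine signalling, had the smallest p of the list, with 0.37 between DKO and control (standard error 0.08, adjusted p = 0.423), followed by the secreted peptide precursor Vgf with 0.56 (standard error 0.12, adjusted p = 0.427). Stat3 and Hrk, a BH3-only cell death gene, were higher in all libraries with the Ank3 deletion than in all without it, 2 of 34 beside 0.53% of all genes, and both were chosen after their values were seen. Stat3 was at 111.1 to 121.4 CPM without the deletion and 121.8 to 159.4 with it, and Hrk at 5.15 to 7.67 and 7.68 to 10.3 CPM.

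Kinases and scaffolds relay the injury signal of the axon. Of 12 DLK-JNK genes, 0 passed in any comparison in edgeR and 0 in DESeq2. In edgeR, 0 had an unadjusted p under 0.05 against control in any of the 3 knockouts and 1 each in DKO against NFKO and the interaction. Of all genes, 7.69%, 5.39% and 7.77% did in NFKO, AnkGKO and DKO against control, 16.2% in DKO against NFKO and 10.3% in the interaction. The changes of the 12 genes lay between -0.13 and 0.00 in NFKO, -0.12 and 0.07 in AnkGKO and -0.12 and 0.10 in DKO against control. Mapk8ip3, a scaffold for JNK, differed by -0.13 in NFKO (standard error 0.07, adjusted p = 0.733), and Mapk8, which encodes JNK1, by -0.12 in DKO (standard error 0.06, adjusted p = 0.661).

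Receptors for the secreted peptides and for Csf1 were tested in 10 of 11 cases, and 0 passed in edgeR or DESeq2, with 1, 2 and 2 at an unadjusted p under 0.05 in NFKO, AnkGKO and DKO against control, 4 in DKO against NFKO, 0 in DKO against AnkGKO and 1 in the interaction. The shares of all genes were 7.69%, 5.39%, 7.77%, 16.2%, 8.48% and 10.3% in that order. Csf1r, the receptor for Csf1 on microglia, was at 100.4 to 125.8 CPM in control, 124.1 to 130.8 in NFKO, 136.6 and 141.3 in AnkGKO and 118.6 to 151.0 in DKO. Its change between DKO and control was 0.30 (standard error 0.10, adjusted p = 0.582). The 7 microglial markers, of which Csf1r is 1, summed to 359 to 437 CPM in control, 421 to 450 in NFKO, 485 and 510 in AnkGKO and 396 to 511 in DKO, and their part in the level of Csf1r was not tested. Adcyap1r1, the receptor for PACAP, differed by -0.15 between NFKO and control (standard error 0.06, adjusted p = 0.603).

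Partners of Jun and Atf3 in AP-1 and Atf dimers also gave 0 of 10 passing in edgeR and 0 in DESeq2. In edgeR, 0 had an unadjusted p under 0.05 against control and 1 in DKO against NFKO. Of all genes, 7.69%, 5.39% and 7.77% did in NFKO, AnkGKO and DKO against control and 16.2% in DKO against NFKO. Batf3 differed by 0.59 between DKO and control (standard error 0.28, adjusted p = 0.639) and Batf by 0.93 between NFKO and control (standard error 0.52, adjusted p = 0.777). Among the relatives of the 10 genes, 11 of 15 could be tested and 0 passed in edgeR. Of these, 0, 2 and 1 had an unadjusted p under 0.05 in NFKO, AnkGKO and DKO against control, beside 7.69%, 5.39% and 7.77% of all genes. DESeq2 called 1 relative, Vip, in DKO against control. Vip differed by 1.03 between DKO and control (standard error 0.24, adjusted p = 0.467), from 1.40 to 1.64 CPM in control to 2.17 to 4.34 in DKO, and Sox12 by 0.28 between AnkGKO and control (standard error 0.09, adjusted p = 0.610). Sprr1b, the closest relative of Sprr1a in the list, chosen here after its values were seen, was at 0.227 CPM in AnkGKO 1, 0.0234 CPM in DKO 2 and 0 in the other 9 libraries.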

How the data were processed

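The authors aligned trimmed reads to GRCm39 and counted them per gene, and they deposited raw read counts and a normalized signal, the counts divided by 1 size factor per library. Per the labels, Trimmomatic 0.39, STAR 2.7.11a and DESeq2 1.40.2 were used. The counts were tested here, and the normalized signal was not. Without the 5 summary lines, genes totalling 10 counts or more were fitted in edgeR 4.0.16 (R 4.3.3) with TMM factors, robust quasi-likelihood fits over 4 genotypes and Benjamini-Hochberg adjustment. A call needed an adjusted p under 0.05 and a log2 fold change of 0.6 or more in either direction, without that fold for the test over all genotypes. The fit was tested on simulated data. Named genes were all 10 genes, any list gene past the threshold, otherwise the 2 with the smallest p against control per pathway list, the 2 genes most alike to each of the 10 in log2(CPM + 0.5), Nfasc and Ank3. Alternatives were DESeq2 1.42.0, its size factors, other filters, a replicate block, Xist as a covariate, fewer libraries and each library left out. The genes and lists were chosen with earlier results of these data known. Control and NFKO libraries of the same replicate number deviated together (r = 0.55, 0.47 and 0.26), a pairing taken from the label numbers, and the block changed no call of the 10 genes between them. Promoter sequences are from RefSeq on GRCm38.p6, where 9 of the 10 genes matched.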

Additional observations from a re-analysis of the deposited data

How the results depend on the processing

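Of 718 values of the 10 genes under alternatives, 643 kept their direction and side of the threshold, 23 lost a call, 9 gained one and 43 changed sign, none of the last larger than 0.36 or with an adjusted p below 0.91. The numbers of genes called, 64 in NFKO, 29 in AnkGKO and 4 in DKO against control, 108 in DKO against NFKO, 30 in DKO against AnkGKO, 93 for the interaction, 127 for any genotype and 23 for the average effect of the Ank3 deletion, moved more. DESeq2 called 159, 102, 44, 418, 99, 314, 1137 and 127 genes in that order, and 2 of the 10 in AnkGKO, 3 in DKO and 1 in the interaction. With Xist as a covariate 31, 13, 43, 9, 19 and 76 genes were called in NFKO, AnkGKO, DKO against NFKO, DKO against AnkGKO, the interaction and any genotype, and 0 of the 10 in AnkGKO, 1 in DKO and 1 in DKO against NFKO. Without control 1 and NFKO 1, 29, 59, 41, 62 and 11 genes were called in NFKO, DKO against NFKO, the interaction, any genotype and the average Ank3 effect, and 0 of the 10 in AnkGKO and 1 each in DKO against NFKO, any genotype and the average effect. With only the libraries compared, 11 genes were called in DKO against AnkGKO and 0 of the 10 in AnkGKO. At a log2 fold change of at least 1, 69 genes were called in DKO against NFKO. DESeq2's size factors and no filter each called 1 of the 10, Ecel1, in DKO. Leaving out each library gave 40 to 71 genes in NFKO, 18 to 35 in AnkGKO, 4 to 8 in DKO, 68 to 162 in DKO against NFKO, 12 to 40 in DKO against AnkGKO, 52 to 102 for the interaction, 82 to 169 for any genotype and 13 to 26 for the average effect, and of the 10 genes 0 to 2 in AnkGKO, 0 to 1 in DKO and 1 to 2 in DKO against NFKO. Fits with fewer libraries had fewer residual degrees of freedom, but some counts rose, to 162 in DKO against NFKO and 35 in AnkGKO. The causes of these changes in counts were not tested. Where 1 AnkGKO library was left out, the other was assumed to vary like the other genotypes.

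With a replicate block in the fit, 0 of the 10 were called in AnkGKO (Atf3 1.45, adjusted p = 0.0728, edgeR with Benjamini-Hochberg adjustment) and 1 in DKO against NFKO, where Sprr1a was lost (4.01, adjusted p = 0.0509), and Atf3 lost its call in the average effect (0.96, adjusted p = 0.0513) and in the test of any genotype. It changed no other call of the 10 in a comparison with control. Same-numbered libraries outside control and NFKO did not deviate together throughout (r between -0.47 and 0.47), so there the block rests on numbers only.

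Values that changed sign were small after the change, although Sprr1a in NFKO was at -0.80 before it. Leaving out a library gave Sox11 -0.23 to 0.070, Gap43 -0.014 to 0.10, Sprr1a -1.36 to 0.15 and Adcyap1 -0.030 to 0.25 in NFKO, Gap43 -0.17 to 0.16, Gal -0.42 to 0.36, Npy -0.45 to 0.34 and Adcyap1 -0.16 to 0.44 in AnkGKO, and Jun -0.23 to 0.036, Gap43 -0.051 to 0.056, Gal -0.58 to 0.090 and Npy -0.079 to 0.16 in DKO. With Xist as a covariate Adcyap1 was at -0.049 in NFKO and -0.014 in AnkGKO, Gal at 0.19 and Npy at 0.084 in AnkGKO, and Gap43 at -0.034 and Npy at -0.0038 in DKO. Without control 1 and NFKO 1 Gap43 was at -0.0014 in AnkGKO and -0.0037 in DKO and Npy at -0.079 in DKO. The block gave Gap43 -0.0028 and Gal 0.088 in AnkGKO. With no filter Gap43 was at -1.3e-05 in AnkGKO and -0.0063 in DKO, with edgeR's expression filter at -0.0039 in DKO and with only the libraries compared at -0.0046 in DKO. Low counts limit Sprr1a most, since its control and NFKO levels rest on 2 to 25 counts per library.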

Other observations

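Each of the 10 genes was compared with all other genes at a mean of at least 1 CPM for the likeness of its pattern, as Pearson's r of log2(CPM + 0.5) over the same 11 libraries and with no test. The most alike were Wdr1 (0.88) and Rimklb (0.88) for Sprr1a, Lgals8 (0.92) and Wdr1 (0.91) for Ecel1, Tnfrsf11a (0.93) and Dsp (0.90) for Atf3 and Lgals8 (0.89) and Slc37a2 (0.87) for Csf1. Thus Wdr1, which encodes an actin-disassembly factor, was near the top for Sprr1a and Ecel1, and Lgals8, a galectin gene, for Ecel1 and Csf1. The genes most like the remaining 6 were Aldh3a2 (0.93) and Ptgr2 (0.92) for Jun, Tsku (0.95) and Met (0.90) for Sox11, Itm2c (0.91) and Insm1 (0.90) for Gap43, Rasd2 (0.96) and Stk32c (0.93) for Gal, Dmkn (0.94) and Col6a1 (0.94) for Npy and Pthlh (0.97) and Cpne8 (0.92) for Adcyap1. With 13900 genes compared over 11 libraries that fall into genotypes, high values are easily found, and they share library depth and tissue makeup.

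Schwann cell markers summed to 24.4 to 136 CPM in control, 277 to 299 in NFKO, 21.3 and 190 in AnkGKO and 7.10 to 157 in DKO, so that the NFKO libraries lay above all others. Meningeal fibroblast markers summed to 143 to 427 CPM in control, 484 to 1518 in NFKO, 150 and 380 in AnkGKO and 101 to 393 in DKO, again with the NFKO libraries above all others. Skeletal muscle markers varied within genotypes, from 2.30 to 309 CPM in NFKO and from 2.26 to 150 CPM in DKO, against 26.3 to 52.7 in control and 1.89 and 2.48 in AnkGKO. Oligodendrocyte precursor markers summed to 499 to 538 CPM in control, 486 to 529 in NFKO, 449 and 528 in AnkGKO and 390 to 476 in DKO. Immediate early genes summed to 122 to 154 CPM in control, 136 to 162 in NFKO, 130 and 147 in AnkGKO and 115 to 128 in DKO. Dorsal horn peptide genes lay between 246 and 388 CPM.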
